A study of Mus musculus with 2 samples.

Results

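The genes described here are 10 genes of newly formed neurons, chosen by name because they encode cytoskeletal or RNA-binding proteins of early neurons: Tubb3, Ina, Nefm, Nefl, Prph, Stmn2, Dcx, Elavl3, Elavl4 and Celf5. They were picked with results of these same arrays known, so their differences between the pools are a description and were not tested. All 10 had at least 1 probe annotated to them alone, 12 probes in all among 21615 such probes for 18069 genes. The study compared total RNA of the whole embryo proper from wild-type and mDom-/- mice, both at embryonic day 8.5. The wild-type RNA came from a pool of 42 embryos and the mDom-/- RNA from a pool of 45 litter-matched embryos, and each pool was hybridised to 1 array. mDom is the submitters' name for Ep400, which encodes the ATPase of the p400/TIP60 chromatin-remodelling complex, and the mDom-/- embryos are homozygous for its disruption. The sources used here do not give the allele, the strain or the sex of the embryos. Ep400 itself had 2 probes, both below the floor of signal on both arrays (0.215 and 0.470 in wild-type, -0.029 and 0.071 in mDom-/-, in units of the array median), so the labels could not be checked with it.

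A neuron takes on its shape with a cytoskeleton of its own. Microtubules containing the beta-tubulin Tubb3 are regulated by stathmins such as Stmn2, which promote their disassembly, and by doublecortin (Dcx), which stabilises them in migrating neurons. Intermediate filaments of peripherin (Prph), alpha-internexin (Ina) and the neurofilament subunits (Nefl, Nefm) fill the axon. The Hu proteins Elavl3 and Elavl4 bind U-rich stretches of messenger RNA and stabilise it or direct its splicing, and Celf5 is a splicing and translation regulator of the CELF family. In the mouse embryo at this stage neurons are only beginning to appear among the progenitors of the closing neural tube and in the cranial ganglia, so neurons are a small part of the whole embryo. In such bulk RNA, a different number of neurons and a different amount of RNA per neuron cannot be told apart.

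Promoter sequence is shown for the 3 genes that were at least 2-fold higher in the mDom-/- pool (Prph, Celf5 and Tubb3), for the next highest gene measured on both arrays (Ina), and for a short stretch of Elavl3 in which a pair of motifs lie side by side. The sequences are from RefSeq, build GRCm38.p6, read 5′ to 3′ on the gene's strand and end at or before the annotated transcript start. Capitals mark the motifs searched for on both strands: the E-boxes CAGCTG and CAGATG, bound by proneural factors, the TATA box TATAAA, the GC box GGGCGG, the CCAAT box CCAAT, and TTCAGCACC and GGACAGCG, stretches from the left and right parts of the element bound by the neuronal gene repressor REST.
Prph (chr15:99054924-99055173, + strand): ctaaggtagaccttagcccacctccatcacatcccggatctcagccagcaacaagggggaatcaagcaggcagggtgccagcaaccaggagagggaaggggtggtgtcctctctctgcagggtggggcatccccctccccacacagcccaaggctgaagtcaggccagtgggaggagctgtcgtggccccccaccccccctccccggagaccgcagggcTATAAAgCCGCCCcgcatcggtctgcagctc
Celf5 (chr10:81482731-81482949, - strand): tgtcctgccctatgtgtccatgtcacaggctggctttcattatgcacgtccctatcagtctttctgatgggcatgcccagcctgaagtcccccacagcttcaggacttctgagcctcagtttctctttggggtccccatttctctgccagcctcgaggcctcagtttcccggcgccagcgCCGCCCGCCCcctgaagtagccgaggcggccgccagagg
Tubb3 (chr8:123411303-123411552, + strand): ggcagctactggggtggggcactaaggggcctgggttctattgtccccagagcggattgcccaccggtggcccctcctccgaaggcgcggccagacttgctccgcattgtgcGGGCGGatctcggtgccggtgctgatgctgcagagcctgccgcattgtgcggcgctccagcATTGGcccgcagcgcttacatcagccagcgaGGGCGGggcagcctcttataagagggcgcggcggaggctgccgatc
Ina (chr19:47014431-47014680, + strand): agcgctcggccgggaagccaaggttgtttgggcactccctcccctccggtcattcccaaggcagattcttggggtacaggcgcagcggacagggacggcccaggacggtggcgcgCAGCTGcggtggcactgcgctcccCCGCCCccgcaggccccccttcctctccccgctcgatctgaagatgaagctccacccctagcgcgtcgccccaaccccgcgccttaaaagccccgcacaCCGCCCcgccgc
Elavl3 (chr9:22052039-22052068, - strand): ggCAGCTGcctcTATAAAgggctgggggcg
The Prph stretch of 250 bases holds TATAAA 31 bases before the start, followed by a GC box on the opposite strand at 24 bases. RefSeq also has an earlier start for Prph, so this stretch lies inside the gene's annotated span. For Celf5 only the 219 bases outside the annotated span are shown, and they hold 2 overlapping GC boxes on the opposite strand. Tubb3 has GC boxes at 138 and 46 bases before its start and a CCAAT box on the opposite strand at 77 bases. In the Ina sequence, CAGCTG lies 135 bases before the start. In the 30 bases of Elavl3, CAGCTG at 43 bases is followed by TATAAA at 33 bases.

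RefSeq windows of 300 bases (250 before and 50 after a start) were at hand for 7 of the 10 genes, 15 windows in all, some of which overlap because Elavl4, Dcx and Celf5 have several starts. CAGCTG was found in 5 of these windows, belonging to Ina, Elavl3, Elavl4 and Celf5, and in 16.3% of the 32851 windows of all genes. TATAAA was found in windows of Prph, Dcx and Elavl3 and in 13.6% of all windows. The GC box was in 7 of the 15 windows against 35.7% of all, and the CCAAT box in 8 of the 15 against 37.4%. CAGATG was found in 3 windows, all of Elavl4, against 17.2% of all. Neither TTCAGCACC (0.371% of all windows) nor GGACAGCG (1.26%) was in any of the 15, and at these shares 15 windows would hold few or none. Nefm, Nefl and Stmn2 had no window and were not searched. No motif was shared by all 3 of the 2-fold higher genes except the GC box. These matches are letters in a window and show no binding. Among the windows, GC content ran from 43.0% (Dcx) to 71.7% (Ina), against a median of 52.7% over all windows.

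The mDom-/- pool carried more signal for most of the early neuron genes. Each signal is expressed in array medians, and a probe was compared when it lay above a floor of 0.541 on at least 1 array. Of the 10 genes, 8 were compared and 7 lay above the floor on both arrays. Prph, Celf5 and Tubb3 were at least 2-fold higher in the mDom-/- pool and none was at least 2-fold lower. The background over all 13137 compared genes was 0.845% called higher and 0.929% called lower by this 2-fold rule. Because the genes were chosen from these arrays, nothing is read from that contrast. The log2 ratio (mDom-/- minus wild-type) was above 0 for 7 of the 8, against 49.5% of all compared genes, and its median was 0.61, against -0.0036 over all compared genes. A gene compared through 1 array only had to differ, and this holds for Elavl3. Over the 7 genes measured on both arrays the median was 0.66.

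**Figure D1:**
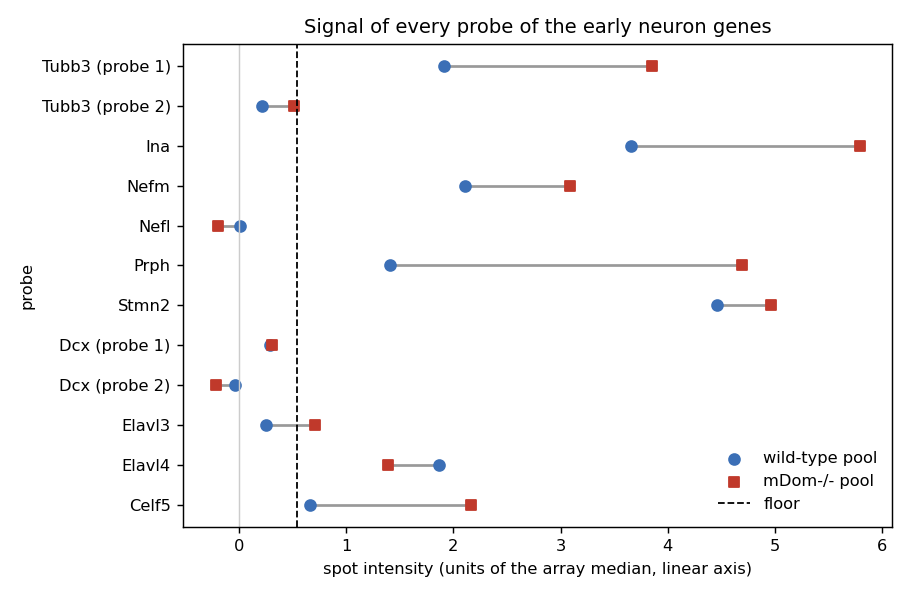
Spot intensity of each of the 12 probes in the wild-type pool (blue circles) and the mDom-/- pool (red squares), in units of the array median on a linear axis, with 1 array per pool and no error bars; the dashed line is the floor of 0.541. Prph, Tubb3 (probe 1), Ina and Celf5 lie furthest to the right of their wild-type value, Elavl4 lies to the left of it, and Nefl, Dcx and Tubb3 (probe 2) stay below the floor in both pools.

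Because each pool was read on 1 array, replicate error could not be estimated and no test was made. The only repeated measurement inside the arrays is between different probes of the same gene: across 1302 genes that had exactly 2 such probes, the log2 ratio had an SD of 0.25. It covers disagreement between probes read on the same arrays. Error that the probes share, and how pools, litters or embryos vary, are not in it. The early neuron genes were dim. Of the 8 compared, 5 fell into group 2 when all genes measured on both arrays were divided by brightness into 4 equal groups, with group 1 the dimmest. In group 2 the robust SD of the log2 ratio over all genes was 0.26, with 0.738% of genes called higher and 0.537% called lower. The other 3, Celf5, Elavl4 and Elavl3, lay in the brightness range of group 1, where the robust SD was 0.35, with 1.01% of genes called higher and 1.37% called lower.

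Among the intermediate filament genes, all 3 that could be compared were higher in the mDom-/- pool. Prph, the type III filament of peripheral and some motor neurons, read 1.41 in the wild-type pool and 4.69 in the mDom-/- pool. That is 3.34-fold higher, a log2 ratio of 1.74, and ranked 15 from the top of the 13137 compared genes. Its wild-type signal was 2.60 times the floor and its mDom-/- signal 8.68 times, so both readings were measured and not bounds.

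Ina, the alpha-internexin subunit that appears early in developing neurons, read 3.66 in wild-type and 5.80 in mDom-/-. Its ratio of 1.58-fold (log2 0.66) was short of the 2-fold rule. Nefm, the medium neurofilament subunit, read 2.11 and 3.09, a ratio of 1.46-fold (log2 0.55). A second probe that the annotation gives to both Nefm and the gene model A230070E04Rik read 0.452 and 0.714. Only its mDom-/- reading passed the floor, which makes it at least 1.32-fold higher there, the same direction as the Nefm probe. Nefl, the light subunit, read 0.014 in wild-type and -0.194 in mDom-/-. Both readings were below the floor, so no ratio was formed, and the gene next to Nefm on the chromosome gave no measurable signal in either pool.

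The microtubule genes ranged from a difference just past 2-fold to no measurable signal. Tubb3, the beta-tubulin widely used as a marker of young neurons, read 1.92 in wild-type and 3.86 in mDom-/-. This was 2.01-fold higher (log2 ratio 1.01, rank 109), just past the 2-fold rule. A second Tubb3 probe read 0.217 and 0.518, below the floor in both pools; taken without a floor it was 2.39-fold higher in mDom-/-, but neither reading was measurable. A further probe, annotated to both Tubb3 and the broadly expressed tubulin gene Tubb4b, read 147.6 and 180.4, a ratio of 1.22-fold. The Tubb4b probe of its own read 531.6 and 592.5 (log2 0.16), so the shared probe gives no separate reading of Tubb3.

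Stmn2 had similar signal in both pools, 4.46 in wild-type and 4.96 in mDom-/-. The log2 ratio of 0.15 was smaller than the SD of 0.25 between probes of a gene, so Stmn2 could not be told apart between the pools. Its signal was 8.25 and 9.18 times the floor, so dimness did not limit this reading. Each of the 2 Dcx probes was below the floor on both arrays, reading 0.291 and 0.311 for the first and -0.035 and -0.217 for the other. At this signal no difference in Dcx was detectable, and these readings do not show that the transcript is absent.

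The RNA-binding genes went in both directions. Celf5 read 0.661 in wild-type and 2.17 in mDom-/-, 3.28-fold higher (log2 ratio 1.71, rank 19 of 13137). The wild-type reading was only 1.22 times the floor, and raising the floor to the 60th percentile of the arrays reduced the log2 ratio to 0.30. Elavl3, the gene of HuC, read 0.255 and 0.713. It was above the floor in mDom-/- only and was therefore at least 1.32-fold higher there; taken without a floor the readings were 2.79-fold apart. Elavl4, the gene of HuD, was the only compared gene of the 10 that was lower in the mDom-/- pool, reading 1.86 in wild-type and 1.39 in mDom-/-. It was 1.34-fold lower (log2 ratio -0.42), above the SD of 0.25 between probes but close to the robust SD of 0.35 among equally dim genes, and it was -0.08 with the floor at the 60th percentile.

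**Figure D2:**
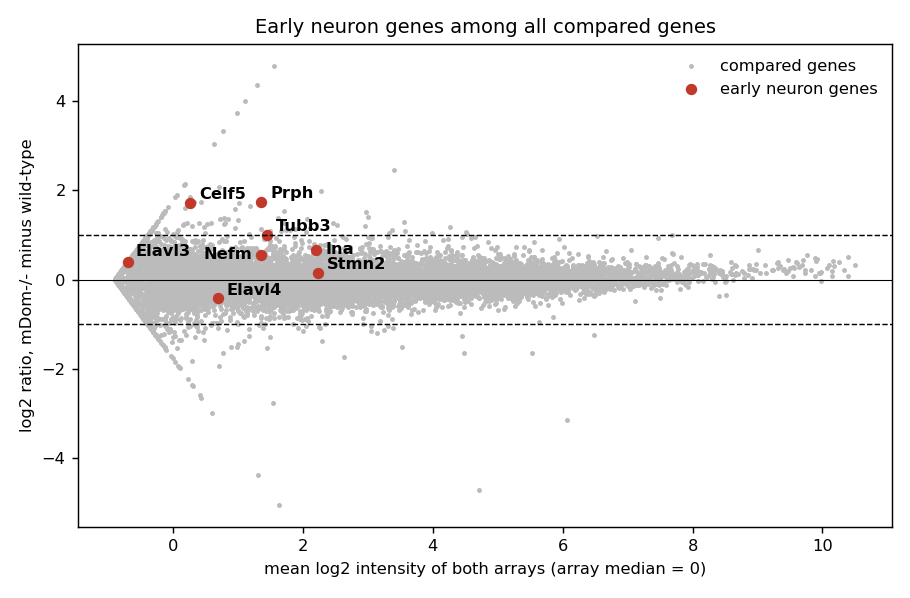
Log2 ratio (mDom-/- minus wild-type) against the mean log2 intensity of both arrays (array median at 0) for 13137 compared genes (grey) and the 8 compared early neuron genes (red); dashed lines mark 2-fold. Prph and Celf5 lie at 1.74 and 1.71 in the dim, widely scattered part of the plot, Tubb3 lies on the 2-fold line, and Elavl4 lies below 0.

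The chromosomal neighbours of the early neuron genes are given for their position, beside 1.77% of all compared genes that were 2-fold apart in either direction. The nearest protein-coding genes on either side of the 10 genes, from the gene order of RefSeq, gave 15 compared neighbours outside the set, with none 2-fold apart, which is near that background and says nothing particular about them. Their log2 ratios ran from -0.84 (Capn6, beside Dcx) to 0.68 (Nfic, beside Celf5). The neighbours of Prph, the tubulin gene Tuba1c and the spindle protein gene Troap, had log2 ratios of -0.09 and 0.06. Those of Tubb3, the melanocortin receptor gene Mc1r and Def8, had -0.0023 and 0.34. Neighbours of Ina (Nt5c2 and Pcgf6) had 0.10 and -0.17.

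In the lists of close relatives no compared gene was 2-fold apart, and with 1.77% of all compared genes 2-fold apart in either direction, lists of this size would hold few or none. Of the other tubulin isotypes 7 of 11 were compared, with none 2-fold apart and a median log2 ratio of -0.06 (0.05 with the 60th percentile floor). Tuba1b, the brightest, read 668.4 and 882.9 (0.40), and Tubb6 read 40.5 and 38.9 (-0.06). Of 12 other intermediate filament genes 8 were compared, with none 2-fold apart and a median of -0.06. Vim, the filament of mesenchyme and of neural progenitors, read 64.4 and 52.9 (-0.28), and the lamin genes Lmnb2 and Lmnb1 had 0.17 and -0.29. Des, the muscle filament desmin, named outside the rule for named genes, was just short of 2-fold lower (-0.99). Nefh, the heavy neurofilament subunit, was below the floor on both arrays. Among the stathmin and doublecortin relatives, 4 of 5 were compared, none 2-fold apart, with a median of -0.11, which was 0.11 with the floor at the 60th percentile or none. Stmn1, the stathmin of dividing cells, read 106.5 and 115.2 (0.11), while the doublecortin-like kinase genes Dclk1 and Dclk2 had 0.39 and -0.70. The remaining ELAVL and CELF genes and neural splicing factors had a median of -0.03 over 10 compared genes of 15, none 2-fold apart, among them Celf1 (-0.30), Rbfox2 (0.18) and the splicing repressor gene Ptbp1 (-0.03).

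Other genes of young neurons were counted in 3 lists, beside the 49.5% of all compared genes that lay above 0. Of all compared genes 1.77% were 2-fold apart in either direction, so lists of this size would hold few or none. Of 16 genes for microtubule-associated and growth cone proteins 10 were compared, 4 of them above 0, and the median was -0.12. Tagln3, which encodes a neuronal actin-binding protein of the calponin family, read 3.46 in wild-type and 1.33 in mDom-/-, 2.61-fold lower, and was the only one of these 2-fold apart, with a log2 ratio of -0.97 at the 60th percentile floor. Basp1, Kif5c and Dpysl5, the brightest of this list, had log2 ratios of -0.10, 0.03 and -0.15. Map2 and Mapt, the classic neuronal microtubule-associated proteins, were below the floor on both arrays. Map1b, counted among the 4 above 0, passed the floor in mDom-/- only, so it had to differ and its ratio is a bound. Of 19 synaptic and dense core vesicle genes 11 were compared, 8 of them above 0, with none 2-fold apart and a median of 0.06. The brightest of them, the complexin gene Cplx2, the SNARE gene Snap25 and the chromogranin gene Chga, had -0.03, 0.06 and 0.12. Syt4, Stx1a and Syn2, counted among the 8 above 0, passed the floor in mDom-/- only. Syt11, counted below 0, passed it in wild-type only. Such genes had to differ, and their ratios are bounds.

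Transcription factor genes of early neurons had a median log2 ratio of 0.03 over 15 of 25, with 8 above 0. This median was between -0.08 and -0.06 with the other floors, with none, or over genes measured on both arrays only. Pou4f1 and Insm1, counted among the 8 above 0, passed the floor in mDom-/- only, so they had to differ and their ratios are bounds. Tlx1, a homeobox gene of hindbrain and cranial sensory neurons, read 4.37 in wild-type and 1.80 in mDom-/-, 2.43-fold lower. Isl1, a LIM homeobox gene of motor and sensory neurons that is also expressed in heart progenitors, read 11.0 and 11.7 (0.08). Ebf2 had -0.09, and Onecut2 read 3.85 and 5.61 (0.54). The repressor REST, which keeps neuronal genes silent in other cells, and its partners were all compared, with a median of 0.01 over 10 genes and none 2-fold apart. With 1.77% of all compared genes 2-fold apart in either direction, a list of this size would hold few or none. Rest itself, named outside the rule for named genes, had a log2 ratio of 0.04, and the partner genes Kdm1a, Ctdsp1 and Ctdsp2 had -0.05, 0.20 and 0.22.

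**Figure D3:**
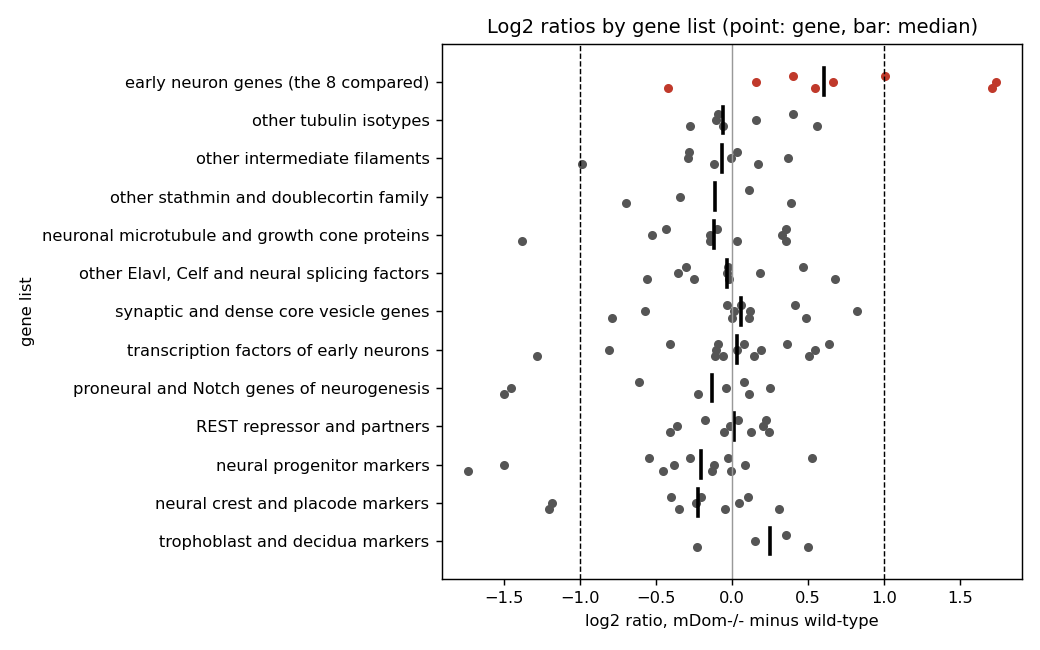
Log2 ratio (mDom-/- minus wild-type) of each compared gene (points) with the list median (black bars) for the early neuron genes (red) and 12 other lists (grey); dashed lines mark 2-fold. The early neuron genes, picked with these values known, have a median of 0.61, and the medians of the other lists run from -0.22 (neural crest and placode) to 0.25 (trophoblast and decidua, 4 genes).

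Progenitor, proneural and crest markers, of the cells from which early neurons arise, each had list medians below 0, with single genes on both sides of it. Over all compared genes 6638 of 13137 were below 0 and 0.929% were at least 2-fold lower. The proneural list, with 5 of 8 below 0, was near that share. Because the lists were chosen with earlier results of these data known, nothing is read from the contrast. The neural progenitor list had 10 of 12 compared genes below 0 and a median log2 ratio of -0.21, and its summed signal was 96.2 in wild-type and 78.7 in mDom-/-. Msi1, counted among these 10, passed the floor in wild-type only, so it had to differ and its ratio is a bound. Zic1, a dorsal neural tube factor, read 11.3 and 3.39 (3.33-fold lower), and Hes5, the Notch effector that keeps progenitors undifferentiated, read 3.12 and 1.10 (2.83-fold lower). Pax6 and Sox3, brighter progenitor factors, had -0.38 and -0.13, and Fabp7, of radial glia, had 0.52. Sox2 was below the floor on both arrays. In the proneural and Notch list, which also holds Hes5, 5 of 8 compared genes were below 0 (median -0.13), and the proneural gene Neurog2 read 1.49 and 0.421, at least 2.75-fold lower in mDom-/-. Neurog2 and Btg2, both counted among these 5, passed the floor in wild-type only, so they had to differ and their ratios are bounds. Dll3, Hes6 and Gadd45g, the brightest of that list, had 0.11, 0.08 and -0.23. Neural crest and placode markers, whose cells give rise to the cranial ganglia, had 7 of 10 compared genes below 0 (median -0.22), with a summed signal of 57.4 in wild-type and 43.3 in mDom-/-. Sox10 read 13.3 and 5.79, 2.30-fold lower, and was a large part of the difference in that sum. Tfap2a was 2.28-fold lower, and Erbb3 and Foxd3 had -0.35 and -0.21. Mitf, Ets1 and Eya2, the genes of this list above 0, had 0.31, 0.11 and 0.04. With the floor at the 60th percentile Hes5 had -0.82, and neither Neurog2 nor Tfap2a was bright enough to be compared.

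Markers of trophoblast and decidua, tissues that dissection can carry along, were measured as well. Of 8 trophoblast and decidua markers 5 had a probe and 4 were compared. Of these 4, 3 were above 0, against 49.5% of all compared genes, and the median log2 ratio was 0.25. Their summed signal was 38.7 in wild-type and 37.7 in mDom-/-, weighted to Plac1, the brightest and the only one below 0. Dcn read 1.58 and 2.01. Prl8a2, a prolactin-family gene of the decidua, read 11.1 and 12.3, Plac1 read 24.0 and 20.4 and Ascl2 read 2.10 and 2.97. Tpbpa, of the spongiotrophoblast, was below the floor on both arrays. The part of these tissues, and of differences in progenitor or crest signal, in the values of the early neuron genes was not tested.

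The values of 4 of the 8 compared genes hardly moved with the processing, but most settings could not move them. Each of these 4 had 1 compared probe and lay above every floor tried on both arrays. The floors and probe rules therefore returned the same value, and only the scaling could change it. Over 10 settings (the chosen one and other scalings, floors and probe rules) the log2 ratio of Tubb3 stayed between 1.01 and 1.04, that of Ina between 0.66 and 0.70, that of Nefm between 0.54 and 0.58 and that of Stmn2 between 0.15 and 0.19. Prph stayed above 2-fold in all 10, between 1.41 and 1.76. Celf5 was at least 2-fold higher in 9 of 10, with its value of 0.30 at the 60th percentile floor, and Elavl3 ranged from 0.40 to 1.48 over the 8 settings in which it was compared. Elavl4 was below 0 in all 10, between -0.42 and -0.08.

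**Figure D4:**
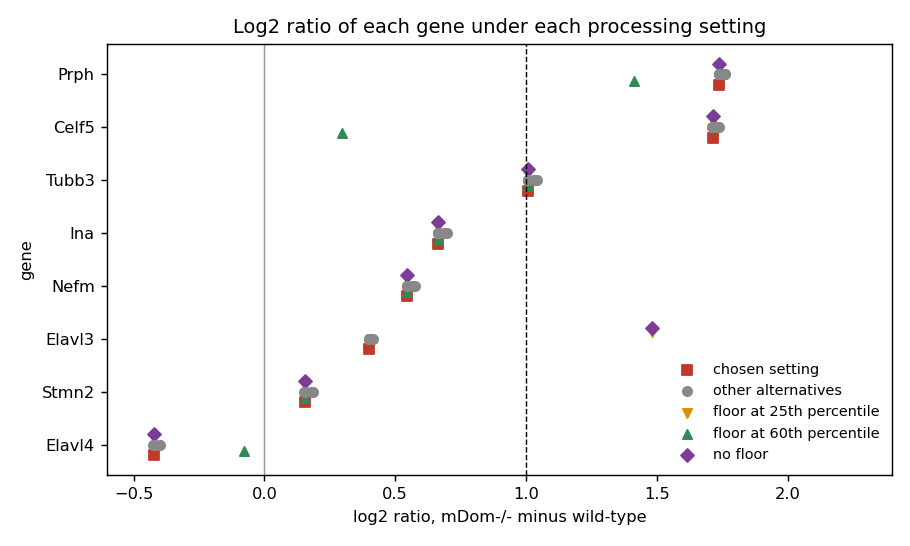
Log2 ratio (mDom-/- minus wild-type) of the 8 compared early neuron genes under the chosen setting (red squares), 3 other floor settings (coloured triangles and diamonds) and the remaining alternatives (grey circles); the dashed line marks 2-fold. Tubb3, Ina, Nefm and Stmn2, which lie above every floor tried, cluster tightly. Celf5 drops to 0.30 with the high floor and Elavl3 reaches 1.48 with the low floor or none.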

How the data were processed

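Total RNA of pooled embryos was measured on 1-colour CodeLink arrays after biotin labelling, per the labels' protocols. The authors deposited 1 linear spot intensity per probe and array. The sources used here do not give the software version, background correction or scaling. Values included negatives, reached 1374 and 1714, and had medians of 1.05 on both arrays. The code -9999 (105 and 106 probes) was read as no value.

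Of 36227 probes, 21615 had 1 symbol, 681 several and 13931 none listed in the platform annotation. Symbols were updated by Entrez identifier through RefSeq (GRCm38.p6), which held 21487 of them. No coordinates are given for probes.

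Each array was divided by its median, raised to a common floor (the higher of the 40th percentiles, 0.541) and put on the log2 scale. A gene took its compared probe with the highest mean log2 intensity. Called means at least 2-fold apart, and there was no test because each group had 1 array, which limits the precision. The steps were checked on simulated data. Known changes were put only on brighter genes with 1 compared probe, so the check does not cover dim genes near the floor. The genes and the other lists were chosen with earlier results of these data known. Named were all 10 genes and, from each other list, the genes at least 2-fold apart and the 3 brightest. Capn6, Nfic and other neighbours, Rest, Des, Mitf, Ets1, Eya2, Dcn, and genes below the floor on 1 or both arrays were named outside this rule. Marker genes carry probes of different brightness, so a summed signal is weighted to the brighter probes. Alternatives were no rescaling, the 75th percentile, quantile normalization, loess (span 0.3), floors at the 25th and 60th percentiles or none, the mean over probes, genes measured on both arrays only, and size rules of 1.5-fold and 3-fold. Python 3.11.15, pandas 2.3.3, numpy 2.4.6 and statsmodels 0.14.6 were used.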

Additional observations from a re-analysis of the deposited data

How the results depend on the processing

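Of the early neuron genes, 3 were at least 2-fold higher in the mDom-/- pool under every scaling tried. The same 3 were higher with the mean over probes and over genes measured on both arrays only. Those last settings could not change the calls, because each of the 3 had 1 compared probe, above the floor on both arrays. The count was 4 of 9 compared genes with the floor at the 25th percentile or no floor, where Elavl3 joined. It was 2 of 7 with the floor at the 60th percentile, where Celf5 left. With a 1.5-fold rule it was 4 of 8, where Ina joined, and with a 3-fold rule 2 of 8, where Tubb3 left. None was called lower in any of these 11 alternatives. The background also moved with the floor. Over all genes, 111 of 13137 were higher in the chosen setting and 533 of 15792 with the 25th percentile floor. With no floor it was 1200 of 16349, and with the 60th percentile floor 38 of 9553. For the 1.5-fold and 3-fold rules no count over all genes was made, so nothing is read from the members' counts under them. The members' median log2 ratio lay between 0.55 and 0.66. Of 108 alternative values of the other lists' medians, 106 moved by less than the SD of 0.25 between probes of a gene. The exceptions were the proneural and Notch list, at -0.42 with the 25th percentile floor and at -0.42 without a floor. At the chosen floor its gene Btg2 had -0.04, because the mDom-/- reading of 0.209 was raised to that floor. With a lower floor or none the Btg2 ratio was lower, which moved the median of the list. No scaling moved the median of all genes by more than 0.1. Signal near the floor limits Elavl3, Celf5, Nefl and Dcx. No paired analysis was possible because each group had 1 array.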
